A study of Mus musculus with 8 samples.

Results

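The genes described are 8 markers of the mesothelium, the single layer of flat cells that lines the pleural surface of the lung: Msln, Muc16, Upk3b, Upk1b, Lrrn4, Gpm6a, Wt1 and Bnc1. They were looked up by symbol in a deposited table of 15728 genes, where 6 of the 8 had a row. Muc16 and Gpm6a were not analysed here.

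Whole lung RNA had been profiled by CAGE (cap analysis of gene expression). The method reads transcripts from their capped 5′ end and so gives 1 read per captured start whatever the length of the RNA. The knockout group held 4 triply n/i/eNOSs-/- mice, which lack all 3 nitric oxide synthases (neuronal, inducible, endothelial), and the control group held 4 wild type mice. All 8 animals were labelled with a C57BL/6J background, were 4 weeks old and were unexposed. The labels do not say whether the wild type mice were littermates of the knockouts, nor give sex or collection time.

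Mesothelial cells secrete lubricating molecules into the pleural space, carry long microvilli and express keratins together with genes of mesenchyme. In the embryo, mesothelium that expresses the transcription factor Wt1 also contributes cells to the lung beneath it and signals to that tissue. Mesothelin, the product of Msln, is a membrane-anchored glycoprotein that binds the mucin encoded by Muc16 in human cells. Uroplakins, named for the bladder lining, are membrane proteins of which Upk3b and Upk1b are also used as mesothelial markers in the mouse.

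CAGE reads are counted at transcript starts, so the windows around the starts show the sequence beside which these values were collected. RefSeq windows of 300 bases (GRCm38.p6, 250 bases before to 50 after the annotated start) were held for 3 of the 6 listed members, Upk3b, Lrrn4 and Bnc1. They are shown because they differ in base composition while their genes are all used as markers of 1 cell type. The reads themselves had been placed on mm9, so no read is tied here to a base of these windows. Capitals mark GGAATG or its reverse complement CATTCC, the core letters bound by TEAD factors, and GGGCGG or its reverse complement CCGCCC, the core letters of GC boxes.
Upk3b: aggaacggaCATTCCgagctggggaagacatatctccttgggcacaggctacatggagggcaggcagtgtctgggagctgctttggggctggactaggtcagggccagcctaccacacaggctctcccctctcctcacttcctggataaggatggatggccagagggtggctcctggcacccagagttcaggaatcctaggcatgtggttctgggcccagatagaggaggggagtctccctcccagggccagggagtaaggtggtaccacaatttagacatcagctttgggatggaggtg
Lrrn4: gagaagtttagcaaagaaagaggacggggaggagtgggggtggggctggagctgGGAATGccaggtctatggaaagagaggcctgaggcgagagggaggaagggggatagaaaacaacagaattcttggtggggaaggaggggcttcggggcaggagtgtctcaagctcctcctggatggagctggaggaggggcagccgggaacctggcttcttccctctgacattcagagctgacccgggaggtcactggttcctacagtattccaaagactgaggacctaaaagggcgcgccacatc
Bnc1: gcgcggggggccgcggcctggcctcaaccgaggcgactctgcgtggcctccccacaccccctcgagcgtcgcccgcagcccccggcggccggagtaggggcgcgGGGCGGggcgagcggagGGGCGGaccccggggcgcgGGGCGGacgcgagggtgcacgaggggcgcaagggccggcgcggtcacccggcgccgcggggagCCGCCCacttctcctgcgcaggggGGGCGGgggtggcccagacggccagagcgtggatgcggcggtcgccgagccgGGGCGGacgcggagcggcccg

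The Upk3b window lies at chr5:136038246-136038545 on the plus strand, the Lrrn4 window at chr2:132880813-132881112 and the Bnc1 window at chr7:81992250-81992549, both on the minus strand. Their GC contents were 58.7%, 58.0% and 83.3%, where the median of 32851 RefSeq windows of that length was 52.7%. Upk3b held 2 CG dinucleotides, Lrrn4 7 and Bnc1 50, against a median of 7. The Bnc1 window was thus far richer in CG than the other two. It held GGGCGG on either strand at 6 places, a motif present in 35.7% of all windows, and neither Upk3b nor Lrrn4 held it. The letters GGAATG, present in 14.7% of windows, stood in Lrrn4 on the plus strand, starting 196 bases before the transcript start, and in Upk3b on the minus strand, starting 241 bases before it. None of the 3 windows held TATAAA (13.6% of windows), CCAAT (37.4%) or GCGTGGG (5.04%), searched on both strands. These matches describe letters and not sites of binding.

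All 6 listed members had reads in all 8 libraries, and all passed the filter of at least 1 count per 1000000 reads (CPM) in at least 4 libraries. Because CAGE gives 1 read per start, their CPM levels can be set beside each other without a correction for length. Upk3b was the most abundant in both genotypes, followed by Upk1b, Msln and Lrrn4, and the ranges of neighbours in this order did not overlap within either genotype. Wt1 and Bnc1 came last and overlapped each other in range in both genotypes. Wt1 rested on 20 to 33 reads per knockout library and 12 to 29 per wild type library, and Bnc1 on 11 to 28 and 11 to 37 reads.

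Library totals, recovered from the CPM steps, were 13014134 to 15096188 reads in knockout lungs and 15598154 to 18593913 in wild type lungs, so 3 reads stood for 0.161 to 0.231 CPM. Nos3, one of the deleted genes, averaged 7.37 ± 1.49 CPM in knockout lungs and 19.8 ± 2.06 CPM in wild type lungs (SD, n = 4 each; limma adjusted p = 4.58e-05), and where its reads lie relative to the deleted part is not given. Over 14065 genes tested, limma on log2(CPM + 0.5) called 16.6% higher and 14.3% lower in the knockout at an adjusted p under 0.05, which makes 30.9% in either direction.

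Differences between the genotypes went both ways for the mesothelial markers, from -0.36 for Bnc1 and Msln to 0.41 for Wt1 on the log2 scale. Regardless of sign, the median log2 difference was 0.322 for the members and 0.194 for all genes tested, with Wt1 and Bnc1 resting on few reads. Of the 6 members tested, limma called 1 lower, Msln, and 0 higher, while at an unadjusted p under 0.05 there was 1 in each direction. Run on reads recovered from the CPM, edgeR and DESeq2, which called 32.5% and 31.7% of genes, each called Msln lower and 1 member, Upk3b, higher. The genotypes separated without overlap for 0 of the 6, against 31.2% of genes tested. The called share with limma was 16.7%, which is 1 of 6 genes, beside 30.9% of all genes tested. With edgeR or DESeq2, which also called Upk3b, the share of members was not under that of all genes. The median log2 difference, knockout minus wild type, was 0.11 for the members and 0.01 for all genes tested. Summed over the 6 members, the level was 290.2 ± 25.4 CPM in knockout lungs and 274 ± 30.6 CPM in wild type lungs (SD, n = 4 each), and the ranges of 271 to 327 and 235 to 306 CPM overlapped. In bulk lung RNA, a change in the number of mesothelial cells and a change in RNA per cell cannot be told apart.

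Msln stood at 44.3, 55.9, 47.0 and 49.6 CPM in knockout lungs and at 49.7, 65.3, 73.7 and 65.6 CPM in wild type lungs. Of the wild type libraries, replicate 1 lay inside the knockout range and the other three lay above it. Msln fell by 0.36 ± 0.11 (log2, SE; limma adjusted p = 0.0347), to 0.78 of the wild type level with a 95% interval of 0.656 to 0.929. The call ended when any library except knockout replicate 2 or wild type replicate 1 was left out, and without a variance trend (all alternatives gave adjusted p of 0.00486 to 0.0986). In GENCODE M21, 1 of 9 Msln transcripts has within its first 200 bases a stretch of at least 75 bases that is at least 97% identical to transcripts of Sirt5 and Tepsin, so reads from that start are uncertain.

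Upk3b, the uroplakin with the highest level, stood at 135, 149, 128 and 125 CPM in knockout lungs and at 89.5, 118, 128 and 107 CPM in wild type lungs. Only wild type replicate 3 reached into the knockout range. The log2 difference was 0.29 (SE 0.10, limma adjusted p = 0.0551), with a 95% interval of 1.04 to 1.43 for the ratio of knockout to wild type. It passed the threshold with TMM or median-ratio scaling, with edgeR or DESeq2, and without wild type replicate 3 (all alternatives gave adjusted p of 0.0258 to 0.133).

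Upk1b, a tetraspanin and partner of uroplakin III proteins in the bladder, stood at 80.3, 94.6, 74.5 and 85.8 CPM in knockout lungs and at 77.7, 81.5, 81.4 and 76.7 CPM in wild type lungs. The wild type values sat inside the knockout range. The log2 difference was 0.07 (SE 0.08, limma adjusted p = 0.479), and the 95% interval of the ratio ran from 0.939 to 1.18. Lrrn4, a membrane protein with leucine-rich repeats, stood at 15.8, 24.3, 18.5 and 21.0 CPM in knockout lungs and at 15.6, 19.7, 19.2 and 16.7 CPM in wild type lungs. Its genotypes overlapped over most of their range, with a log2 difference of 0.14 (SE 0.13, limma adjusted p = 0.419; 95% interval of the ratio 0.909 to 1.34).

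Wt1, the zinc finger transcription factor of mesothelial progenitors, stood at 1.92, 2.23, 2.07 and 1.54 CPM in knockout lungs and at 1.67, 1.34, 1.67 and 0.77 CPM in wild type lungs. Knockout replicate 4 lay inside the wild type range and the other three above it. The log2 difference of 0.41 (SE 0.19) had a limma adjusted p of 0.129, and the interval of the ratio, 0.991 to 1.79, was wide. Bnc1, basonuclin 1, a zinc finger protein also found in keratinocytes, stood at 0.73, 1.89, 1.04 and 0.92 CPM in knockout lungs and at 0.66, 1.67, 2.14 and 2.12 CPM in wild type lungs. Each genotype had 1 library on the other side: knockout replicate 2 was high and wild type replicate 1 was low. The log2 difference was -0.36 (SE 0.29, limma adjusted p = 0.367; 95% interval of the ratio 0.504 to 1.21). For both transcription factors the interval of the ratio includes equality.

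**Figure D1:**
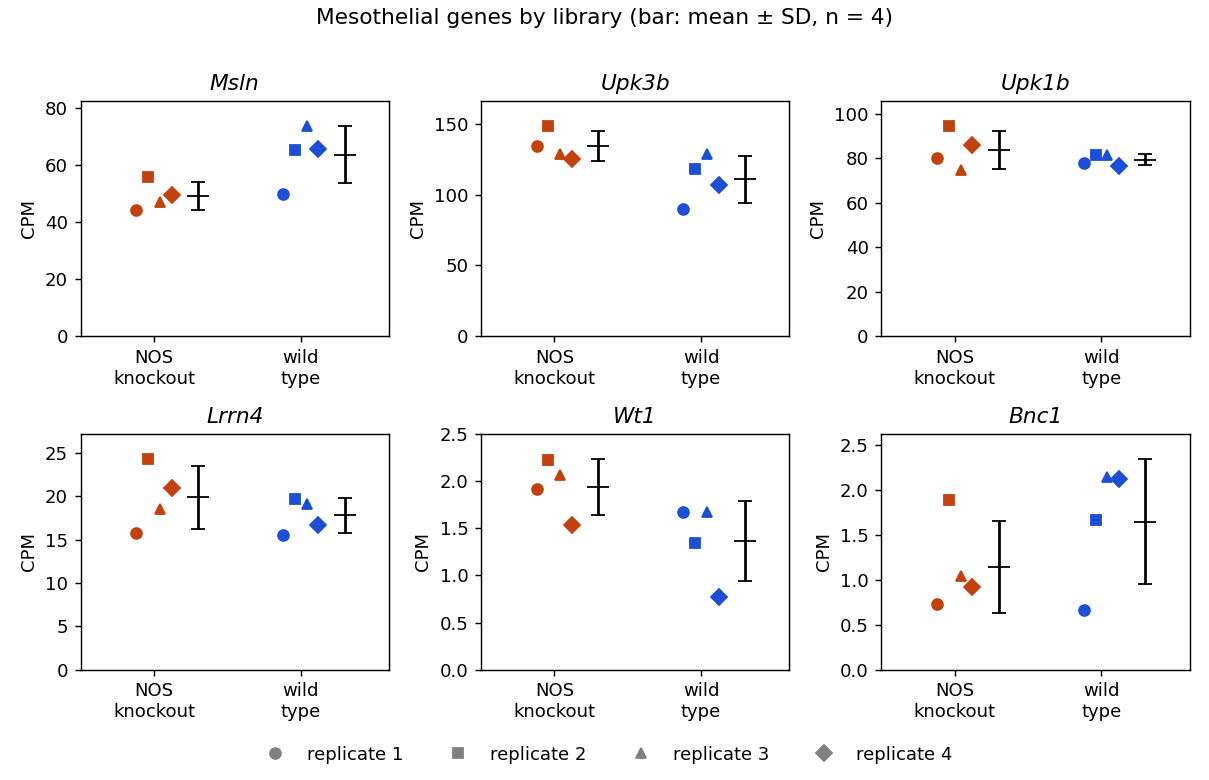
CPM of the 6 listed mesothelial genes in each library, knockout left and wild type right in each panel, with mean and SD of 4 libraries as a bar. Of the 6, Msln was called (lower in knockout, 49.2 ± 4.93 CPM, against 63.6 ± 10.03 CPM in wild type), and in every panel the genotypes share part of their range.

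The members also varied between animals of 1 genotype. In knockout lungs, replicate 2 held the highest value of 6 of the 6 members, with deviations from the genotype mean of 0.15 for Upk3b to 0.59 for Bnc1 on the log2 scale. In wild type lungs, replicate 1 held the lowest value of 4 of the 6, and replicate 3 the highest of 3 and 1 of a tied pair for Wt1. Wt1 differed from the others in wild type lungs, where it was at its highest, 1.67 CPM, in replicates 1 and 3.

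The spread between animals was wider than read counting alone gives for the abundant members. The coefficient of variation of Upk3b was 7.71% in knockout lungs and 15.1% in wild type lungs, where its mean number of reads alone gives 2.28% and 2.30%. Upk1b varied by 10.2% in knockout lungs and by 3.12% in wild type lungs, the second close to its counting error of 2.72%. For Wt1 the observed 15.2% in knockout lungs was below the 18.9% that its few reads give, so no spread between those animals was detectable beyond counting.

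**Figure D2:**
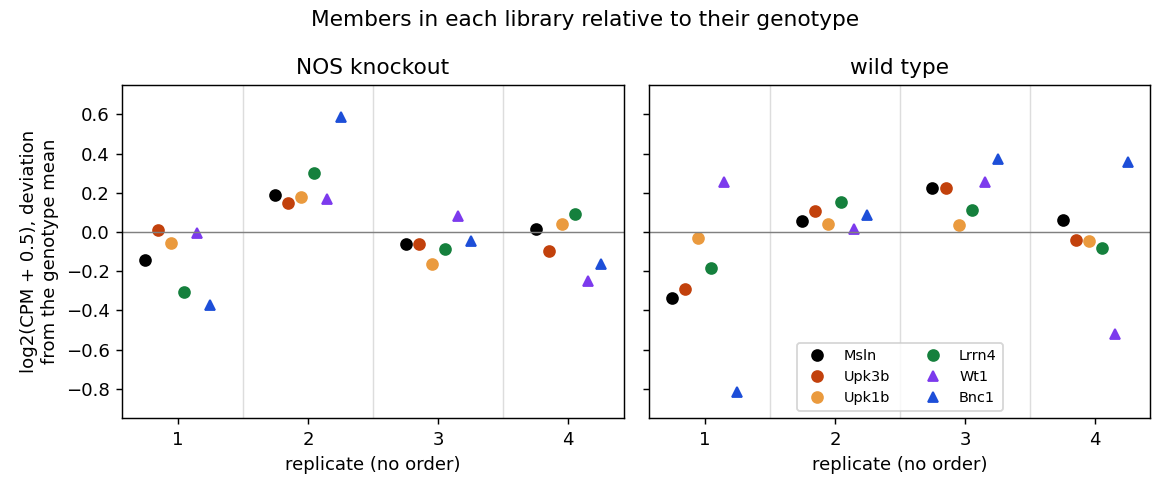
Deviation of log2(CPM + 0.5) from the genotype mean for the 6 members in each library, knockout left and wild type right; triangles mark Wt1 and Bnc1, which have the fewest reads. All 6 points of knockout replicate 2 lie above 0, and 5 of the 6 points of wild type replicate 1 lie below it.

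Summed markers of other cell types also differed between these libraries. Summed over 8 alveolar fibroblast markers, knockout replicate 2 stood at 3453 CPM, against 2803 to 2935 CPM in the other knockout libraries, and over 10 airway secretory markers it stood at 87364 CPM, against 104374 to 117950 CPM. Knockout replicate 2 was also the highest knockout library for 7 endothelial markers, at 1929 CPM, and for 9 adventitial fibroblast markers, at 1163 CPM. Wild type replicate 1 was the lowest wild type library for the adventitial markers, at 1120 CPM, and lay inside the wild type range for alveolar fibroblast markers, with 3795 CPM in a range of 3563 to 4098 CPM. Between genotypes, the sum of 9 alveolar epithelial markers was 50970 to 63338 CPM in knockout lungs and 80886 to 97825 CPM in wild type lungs, without overlap. Of the 9, 3 were called higher and 2 lower, where all genes tested gave 16.6% and 14.3%, and their median log2 difference was 0.036. The alveolar fibroblast sums did not overlap either, at 2803 to 3453 CPM in knockout lungs and 3563 to 4098 CPM in wild type lungs. Of those 8 markers, 2 were called higher and 2 lower. The sum of the 6 listed of 8 ciliated cell markers was 732 to 825 CPM in knockout lungs and 908 to 979 CPM in wild type lungs. Of these markers, 5 were called lower and 0 higher. Of the 10 airway secretory markers, 6 were called lower and 0 higher. Their summed level nevertheless overlapped, at 87364 to 117950 CPM in knockout lungs and 95439 to 116109 CPM in wild type lungs. Of all genes tested, 14.3% were called lower and 16.6% higher. The 9 adventitial fibroblast markers, of a cell type that lies in connective tissue and shares some genes with mesothelium, summed to 1043 to 1163 CPM in knockout lungs and 1120 to 1249 CPM in wild type lungs. None of the markers of these 6 lists that the table held was at 0 in any library. Their part in the levels of the mesothelial genes was not tested.

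Ratios of members within a library do not depend on how much mesothelium the library holds, if the genes come from the same cells. All 15 pairs of the 6 members were computed, after the values above had been seen. Msln over Upk3b was 0.329, 0.376, 0.366 and 0.395 in the knockout libraries and 0.555, 0.552, 0.574 and 0.614 in the wild type libraries. Because Msln was lower and Upk3b higher in the knockout, the log2 difference of their ratio is by arithmetic wider than that of either gene alone. The mean log2 value of Msln over Upk3b was lower by 0.64 in the knockout. Msln over Upk1b and Msln over Lrrn4 also did not overlap, with log2 differences of -0.43 and -0.50. For Msln over Upk1b the ranges nearly met, at 0.631 in knockout replicate 3 and 0.64 in wild type replicate 1. The exact two-sided permutation test gave p = 0.0286 for each of the 3 ratios, the smallest that 4 against 4 animals allow. Adjusted over the 15 pairs this became 0.143, so none passed. With that bound on p, 3 separated pairs among 15 could not pass whatever the size of their separation, so the adjusted p does not decide about them. The 3 of 15 pairs without overlap are to be read against 31.7% of all pairs of tested genes, and the count was 8 without wild type replicate 1 and 5 without knockout replicate 4. Msln thus stood lower relative to the 3 other abundant markers in all 4 knockout libraries, and a separation of this kind was common among pairs of lung genes.

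**Figure D3:**
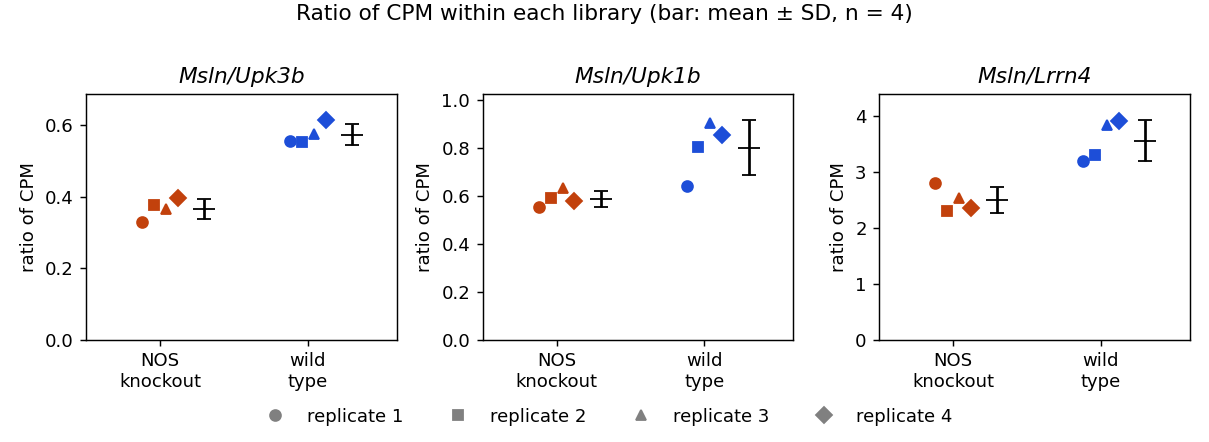
Ratio of the CPM of Msln to that of Upk3b, Upk1b and Lrrn4 in each library, knockout left and wild type right, with mean and SD of 4 libraries. For Msln over Upk3b the 4 knockout libraries lie at 0.329 to 0.395 and the 4 wild type libraries at 0.552 to 0.614.

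A list of 10 further genes known from mesothelium moved in both directions. Of these, 9 had a row, Calb2 was not analysed here, 7 passed the filter, and limma called 2 higher and 2 lower, where all genes tested gave 16.6% and 14.3%. Of the 7, 2 stood above and 1 below every wild type library in all 4 knockout libraries, against 16.8% and 14.3% of genes tested. The median log2 difference of the 7 was -0.13.

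Anxa8, which encodes an annexin, a protein that binds membranes in the presence of calcium, differed most. It stood at 8.08, 11.2, 15.9 and 12.1 CPM in knockout lungs and at 30.9, 30.0, 37.2 and 33.4 CPM in wild type lungs. Every knockout library was far below every wild type library, and Anxa8 fell by 1.47 ± 0.16 (log2, SE; limma adjusted p = 9.93e-05), to 0.361 of the wild type level.

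Rspo1, a secreted enhancer of Wnt signalling, was the other called decrease and was put on the list with its call known. It stood at 4.77, 5.68, 5.04 and 4.92 CPM in knockout lungs and at 5.68, 7.48, 7.51 and 7.24 CPM in wild type lungs, and the genotypes met at 5.68 CPM. Rspo1 fell by 0.41 ± 0.12 (log2, SE; limma adjusted p = 0.0198), and the call ended without wild type replicate 2, 3 or 4 (all alternatives gave adjusted p of 0.00978 to 0.0596).

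Both called increases are genes that fibroblasts also express. Aldh1a2, which makes retinoic acid from retinaldehyde, stood at 23.0, 26.6, 23.5 and 29.2 CPM in knockout lungs and at 16.0, 15.5, 20.2 and 19.4 CPM in wild type lungs. The genotypes did not overlap, and Aldh1a2 rose by 0.52 ± 0.11 (log2, SE; limma adjusted p = 0.00518). Efemp1, the extracellular matrix protein fibulin-3, averaged 122 ± 11.6 CPM in knockout lungs and 91.6 ± 9.06 CPM in wild type lungs (SD, n = 4 each) and rose by 0.41 on the log2 scale (limma adjusted p = 0.00497), also without overlap.

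The other tested genes of that list did not pass. Nkain4, whose product interacts with the sodium pump, stood at 37.8, 43.5, 42.4 and 35.5 CPM in knockout lungs and at 39.9, 47.9, 45.0 and 43.2 CPM in wild type lungs, with a 95% interval of the ratio of 0.795 to 1.03. The tight junction gene Cldn15 averaged 8.83 ± 0.54 CPM in knockout lungs and 9.75 ± 1.22 CPM in wild type lungs. Pkhd1l1, a relative of the fibrocystin gene, averaged 8.37 ± 1.76 CPM in knockout lungs and 7.15 ± 1.27 CPM in wild type lungs. Prg4, the lubricin of joint and serosal surfaces, and the growth factor gene Fgf9 did not pass the filter.

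**Figure D4:**
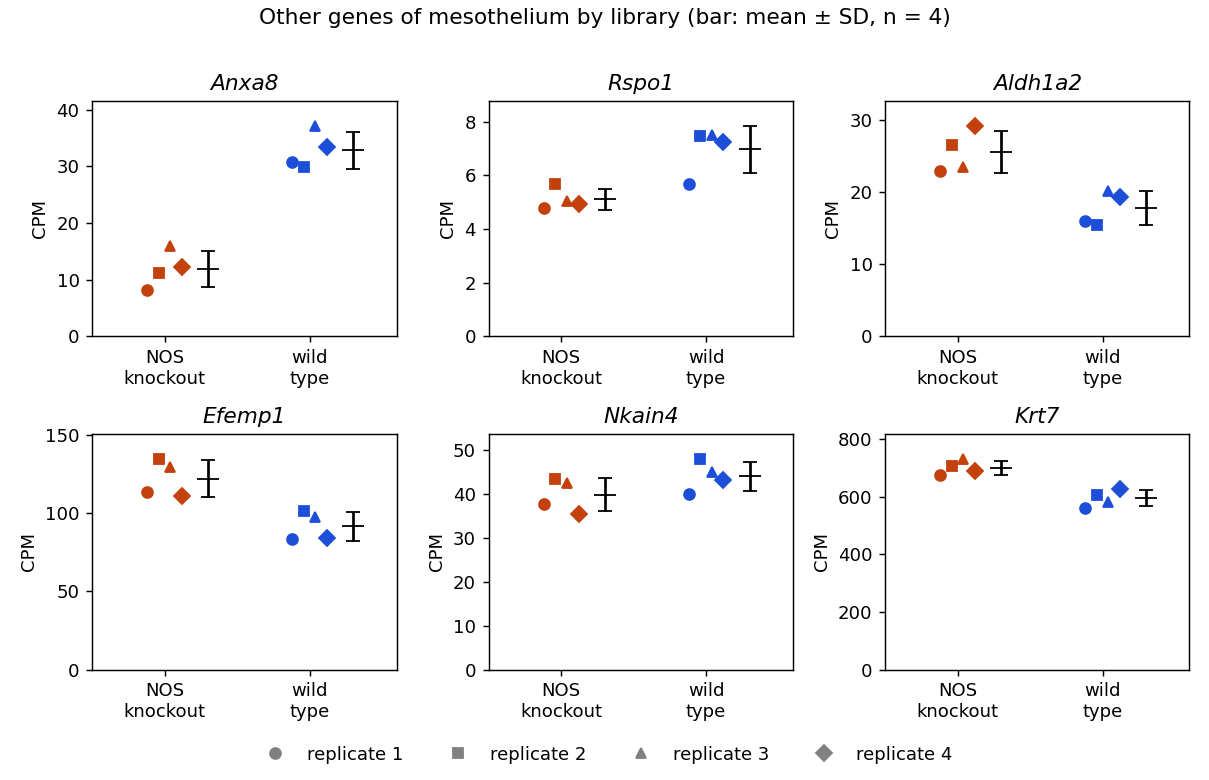
CPM of 5 further mesothelial genes and of the keratin gene Krt7 in each library, knockout left and wild type right, with mean and SD of 4 libraries. Anxa8 is lower and Aldh1a2, Efemp1 and Krt7 are higher in all 4 knockout libraries than in any wild type library, Rspo1 meets at 5.68 CPM, and Nkain4 overlaps.

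A further list held 9 genes that mesothelium shares with lung epithelium or, for Podxl, with endothelium. Of these, limma called 3 higher, Krt7, Podxl and Dmkn, and 1 lower, Pdpn, where all genes tested gave 16.6% and 14.3%. Dmkn was put on the list with its increase known, so the count is not independent evidence of a direction. The median log2 difference was 0.16. Without Dmkn, the summed level of the other 8 was 1765 to 1957 CPM in knockout lungs and 1586 to 1759 CPM in wild type lungs, so the ranges nearly met. Most of this signal need not come from mesothelium, since keratins and Ezr are expressed throughout the airway and alveolar lining.

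Among the keratins, Krt7 stood at 677, 707, 731 and 688 CPM in knockout lungs and at 563, 605, 584 and 627 CPM in wild type lungs. It rose by a small amount without overlap, 0.24 ± 0.06 (log2, SE; limma adjusted p = 0.00861). Krt18, with a log2 difference of 0.25, missed the threshold (limma adjusted p = 0.0515), passing it without knockout replicate 2, with the replicate block or with a filter of 5 CPM (all alternatives gave adjusted p of 0.00734 to 0.143). Krt8 averaged 167 ± 20.6 CPM in knockout lungs and 150.0 ± 9.50 CPM in wild type lungs. Krt19 averaged 168 ± 15.8 CPM in knockout lungs and 150.0 ± 11.0 CPM in wild type lungs. Neither was called.

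Dmkn, the secreted protein dermokine of skin and other epithelia, was known to be among the strongest increases of this series when the list was written. It stood at 169, 199, 282 and 263 CPM in knockout lungs and at 11.5, 12.9, 9.06 and 13.5 CPM in wild type lungs, 18.5-fold higher (limma adjusted p = 1.94e-08). Its highest knockout libraries were replicates 3 and 4, whereas the mesothelial members were highest in replicate 2.

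Pdpn, a mucin-like protein of mesothelium, alveolar type 1 cells and lymphatic vessels, was the 1 called decrease. It averaged 109.8 ± 13.0 CPM in knockout lungs and 195 ± 25.7 CPM in wild type lungs (limma adjusted p = 0.000308). Podxl, a sialomucin of mesothelium and endothelium, averaged 260.0 ± 42.7 CPM in knockout lungs and 203 ± 23.7 CPM in wild type lungs. Its call at a limma adjusted p of 0.0431 ended when any library except knockout replicate 4 or wild type replicate 2 was left out, and without a variance trend (all alternatives gave adjusted p of 0.00481 to 0.112). Ezr, which links microvilli to actin, averaged 233 ± 13.2 CPM in knockout lungs and 220.4 ± 19.7 CPM in wild type lungs. The protease inhibitor Slpi averaged 128 ± 25.1 CPM in knockout lungs and 118 ± 15.0 CPM in wild type lungs. Neither Ezr nor Slpi passed the test.

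**Figure D5:**
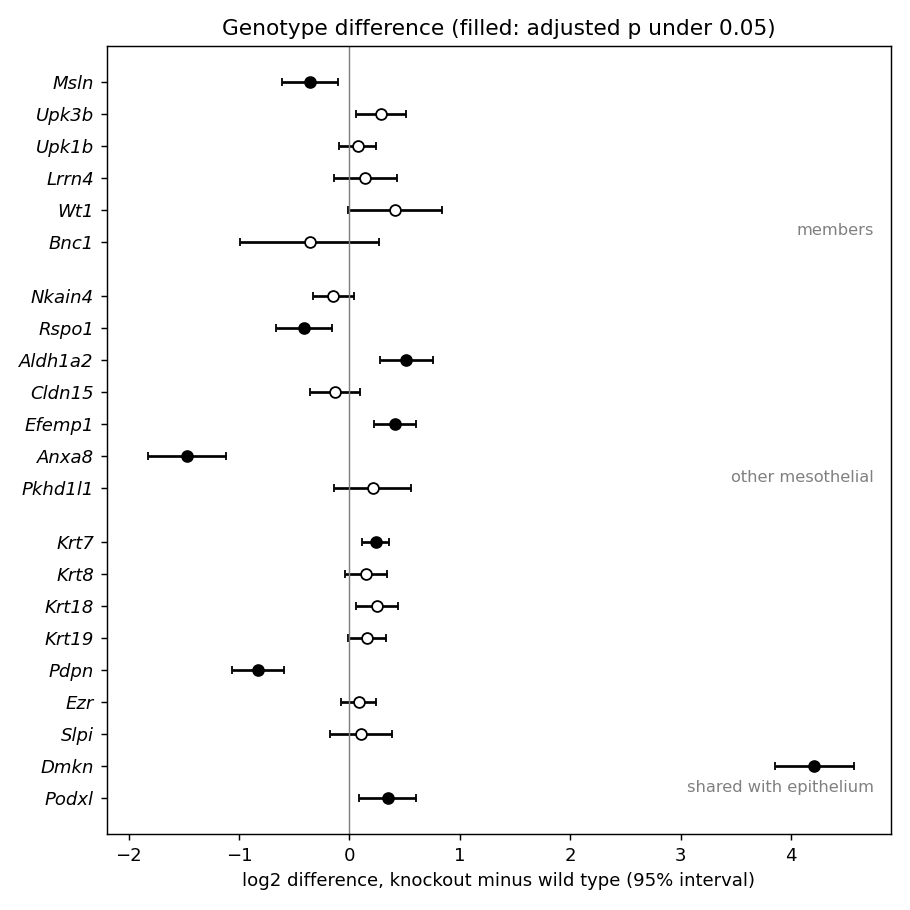
Log2 difference, knockout minus wild type, with its 95% interval from limma for the 22 tested genes of the 3 lists; filled points have an adjusted p under 0.05. Msln is the 1 filled point among the members (-0.36), and the points of Anxa8 (-1.47), Pdpn (-0.83) and Dmkn (4.21) lie farthest from 0.

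Likeness to the members was measured as Pearson r over the 8 libraries between a gene and the mean of the 6 members, each on log2(CPM + 0.5) after the mean of its genotype was subtracted. That mean leans on Bnc1, which has few reads and deviated by -0.816 to 0.586, against -0.163 to 0.179 for Upk1b. Wt1 did not follow Msln (r = -0.1) or Bnc1 (r = -0.19). The likeness is a description of these libraries, and 94 of 10109 eligible genes reached 0.9. The 5 most alike outside the lists were Podn (r = 0.99), Sox7 (0.977), Casp12 (0.976), Atat1 (0.974) and Gas1 (0.972). Podn, which encodes the matrix proteoglycan podocan, stood at 48.6, 68.0, 53.8 and 53.1 CPM in knockout lungs and at 55.4, 77.2, 85.2 and 69.1 CPM in wild type lungs. Of the genes listed above, Rspo1 (r = 0.9) and Pkhd1l1 (0.89) ranked 125 and 156 of 14065, whereas Anxa8 (0.24) and Dmkn (-0.25) did not follow the members.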

How the data were processed

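RNA from whole lungs of 4 knockout and 4 wild type mice was profiled by CAGE, sequenced as single-end reads of 75 nt, per the labels. Per the submitters' processing notes, the tools named are HISAT2 2.0.5, BWA 0.7.12-r1039 and edgeR and the build is mm9, with no role or order. Assignment of reads to genes and the use of strand were not given in the sources used here. The values deposited by the authors are CPM with 2 decimals. Each column sums to 1000000 within rounding, and at least 99.994% of values in each library were whole multiples of the CPM of 1 read within 0.1 reads, so reads were recovered from them for edgeR 4.0.16 and DESeq2 1.42.0. Whether each read stands for an independent molecule was not established here, so counting errors cover counting only.

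The main test was limma 3.58.1 (R 4.3.3) on log2(CPM + 0.5) for genes that reached 1 CPM in 4 or more libraries, with a variance trend and genotype as the only term. Adjusted p are two-sided Benjamini-Hochberg values over all 14065 genes tested. The test was checked on simulated data. Fold changes on log2(CPM + 0.5) understate changes of low genes. The labels do not state that the libraries are separate litters or cultures beyond naming mice, so p measure the spread between these samples. Members and lists were chosen with earlier results of these data known, and the ratios after values were seen. The genes named are the members, the genes of both further lists, Nos3 and the 5 genes most like the members among those with a mean of at least 5 CPM and a proper gene name. Alternatives were other pseudocounts, filters, scalings and tests, a replicate block and leaving out each library. Overlaps and copies came from GENCODE M21 (blastn 2.17.0), used for names only. Bnc1, Nkain4, Rspo1, Aldh1a2, Prg4, Anxa8, Fgf9, Krt7, Krt8, Ezr and Nos3 overlap an annotated gene on the opposite strand, so their values are uncertain where strand was not used.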

Additional observations from a re-analysis of the deposited data

Results flagged for a closer look

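Of 60 groups of 4 libraries examined, 2 held a library far from the other three, where chance flags about 1 in 20. Rspo1 in wild type lungs was at 5.68 CPM in replicate 1, against 7.24 to 7.51 CPM in the other wild type libraries. Atat1 in knockout lungs was at 10.55 CPM in replicate 2, against 7.09 to 7.61 CPM in the other knockout libraries. Atat1 had been picked for its likeness to the members, which were all highest in that library. Its flag therefore cannot be read against the share that chance gives.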

How the results depend on the processing

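Under the 19 alternatives the log2 differences of the 6 members kept their sign wherever they were computed. The count of members called higher, 0, became 1 with TMM scaling, median-ratio scaling, edgeR or DESeq2, and was 0 to 1 when 1 library was left out, the added member being Upk3b. The count called lower, 1, became 0 without a variance trend and was 0 to 1 with 1 library left out, the lost member being Msln. Further mesothelial genes called lower numbered 1 to 2 with 1 library left out. Pairs of members without overlap in their ratio, 3, numbered 3 to 8 with 1 library left out, with 8 without wild type replicate 1 and 5 without knockout replicate 4; these ratio settings were chosen after seeing the data. Slpi, not called, turned to -0.018 without knockout replicate 4 (range -0.018 to 0.193 with 1 library left out). For all of these the cause was not tested. A filter of 5 CPM removed Wt1 and Bnc1. With the replicate block 0 members were called higher and 1 lower, and of the genes of the 3 lists only Krt18 changed its call (0.25, adjusted p = 0.045). Libraries with the same number did not deviate together (r across genes 0.043, 0.026, -0.003 and 0.065). These values cannot decide whether the numbers pair animals, and the labels do not say. Without Dmkn, an alternative chosen after seeing the data, 2 genes of the list shared with epithelium or endothelium, Krt7 and Podxl, were called higher and 1 lower. The lower gene, Pdpn, was also listed with its call known. Of the genes with fewest reads, Wt1 in knockout lungs and Fgf9 in both genotypes varied by no more than read counting gives.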

Other observations

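Both genes of mesothelium that did not pass the filter had few reads and are given as values. Fgf9, a growth factor gene that embryonic mesothelium and epithelium express, stood at 0.99, 0.74, 1.31 and 1.23 CPM in knockout lungs, from 11 to 19 reads each, and at 0.36, 0.43, 0.64 and 0.38 CPM in wild type lungs, from 6 to 11 reads each. All 4 knockout libraries were above all 4 wild type libraries, as were 16.8% of the genes tested. With no filter on low values, where 15728 genes were tested, Fgf9 was called higher (log2 difference 0.71, limma adjusted p = 0.00856), which makes 3 of the further mesothelial genes called higher, and Prg4 was not called (0.05, limma adjusted p = 0.927). Prg4 ranged from 0.13 to 1.08 CPM in knockout lungs and from 0.18 to 1.24 CPM in wild type lungs, with the highest value of each genotype in replicate 2. Prg4 overlaps the listed gene Tpr on the opposite strand.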
